A study of Mus musculus with 17 samples.

Results

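The 10 genes described here encode immune checkpoint receptors and their ligands: the ligands Cd274 (PD-L1), Pdcd1lg2 (PD-L2), Cd80, Cd86 and Lgals9, and the receptors Pdcd1 (PD-1), Ctla4, Havcr2 (TIM-3), Lag3 and Tigit. They were taken by gene name from 3 deposited RNA-seq tables of cells sorted from mouse lung tumors, which list 16410 genes for tumor cells, 13545 for the population labelled TRMs and 13407 for the population labelled MDMs. All 10 were listed for tumor cells, 6 for TRMs and 7 for MDMs. Pdcd1, Lag3 and Tigit in TRMs and MDMs, and Ctla4 in TRMs, are not analysed here.

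Both genotypes carried the alleles of the KL lung tumor model, Lkb1 fl/fl among them, and the KLG4 mice carried Gpx4 m/m in addition. All mice received adenovirus with Cre (Ad-Cre) intranasally and tamoxifen, and cells were taken 10 weeks after Ad-Cre. In the m allele, rox sites flank part of Gpx4 and a Cre-dependent DreERT2 under the CAG promoter removes it after tamoxifen, so deletion is limited to cells that Ad-Cre reached. Each of the 6 groups held 2 libraries, and the legend of the study counts as many mice per group as there are tumor cell libraries. No label ties a library to an animal, so the p-values measure only the spread between these libraries. The study sorted its tumor cells as CD45-CD31-EpCAM+, and the labels do not spell out TRMs or MDMs.

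Checkpoint receptors sit mainly on T cells and lower their response when a ligand on another cell binds. PD-1 binds PD-L1 and PD-L2, and interferon-gamma, acting through the kinases JAK1 and JAK2, is the best-known inducer of PD-L1. CTLA-4 competes with the activating receptor CD28 for CD80 and CD86, which antigen-presenting cells carry. TIM-3 is also found on macrophages and dendritic cells, and galectin-9, the product of Lgals9, is one of its ligands.

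Values are RPKM, reads scaled to gene length and library depth, so they can be set side by side between genes. The library totals behind the RPKM were 9141000 to 36617000 reads. Differences were fitted within each table with limma on log2(RPKM + 0.1) over all genes that reached 1 RPKM in 2 or more of the 4 libraries, and a gene was called at a Benjamini-Hochberg adjusted p under 0.05. Gpx4 measured 56.4 and 61.9 RPKM in KLG4 tumor cells against 94.9 and 76.8 in KL (adjusted p = 0.036, limma). In TRMs it also lay lower in KLG4, at 53.8 and 57.0 RPKM against 89.8 and 88.2 in KL, without passing (adjusted p = 0.0697). In MDMs it lay higher in KLG4, at 93.6 and 97.7 RPKM against 44.9 and 71.3 in KL, without passing (adjusted p = 0.679). The 2 KLG4 tumor libraries were far more alike than any other pair (chi-square per gene of 3.28 against 28.9 to 131.6), and the tumor cell p-values rest in part on this small spread.

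The markers did not always match the labels. The TRM libraries were rich in alveolar macrophage genes, with Chil3 at 2953 to 7513 RPKM and Ear2 at 4093 to 4785 RPKM. The MDM libraries held neutrophil genes at very high levels in all 4 libraries (S100a9 at 9379 to 21106 RPKM and the G-CSF receptor gene Csf3r at 208 to 323 RPKM) beside the macrophage genes C1qa (16 to 92.7 RPKM) and Csf1r (24.3 to 41.2 RPKM), and are called MDMs here only as their label. The KLG4 tumor libraries carried leukocyte RNA: the 10 leukocyte markers summed to 291 and 290.2 RPKM against 23.7 and 32 in KL. In such bulk samples, fewer cells of a type and less RNA per cell cannot be told apart.

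The promoters of 4 of the genes are shown because 3 of these genes rose in KLG4 tumor cells while Lgals9 did not. RefSeq promoters (GRCm38.p6, 250 bases before to 50 after the start) were at hand for 8 of the 10 genes. They were searched on both strands for TTCNNNGAA (the GAS element of interferon-gamma-responsive genes), 2 copies of GAAA parted by 2 bases (the ISRE bound by interferon-regulated factors), TGANTCA (AP-1) and GAGGAAGT (a PU.1-type site). Matches stand in capitals, and none overlapped another.
Cd274, chr19:29367188-29367487, plus strand: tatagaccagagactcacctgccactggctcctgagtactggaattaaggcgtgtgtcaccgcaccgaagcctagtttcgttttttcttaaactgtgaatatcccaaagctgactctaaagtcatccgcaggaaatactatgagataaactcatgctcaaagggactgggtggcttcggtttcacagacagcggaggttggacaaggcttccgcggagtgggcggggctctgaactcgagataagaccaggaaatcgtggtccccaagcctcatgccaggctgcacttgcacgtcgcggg
Havcr2, chr11:46454681-46454980, plus strand: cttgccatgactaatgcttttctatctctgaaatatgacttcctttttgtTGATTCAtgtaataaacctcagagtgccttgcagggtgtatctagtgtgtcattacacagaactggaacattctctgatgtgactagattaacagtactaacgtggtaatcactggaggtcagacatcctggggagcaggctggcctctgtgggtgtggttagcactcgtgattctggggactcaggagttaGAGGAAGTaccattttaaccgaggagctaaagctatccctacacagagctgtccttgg
Cd80, chr16:38458683-38458982, plus strand: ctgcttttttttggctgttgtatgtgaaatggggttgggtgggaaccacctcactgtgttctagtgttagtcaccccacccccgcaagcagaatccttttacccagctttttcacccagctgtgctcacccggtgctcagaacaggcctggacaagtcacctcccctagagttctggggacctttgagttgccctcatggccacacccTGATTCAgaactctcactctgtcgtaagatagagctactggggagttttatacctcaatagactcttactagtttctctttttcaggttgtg
Lgals9, chr11:78984875-78985174, minus strand: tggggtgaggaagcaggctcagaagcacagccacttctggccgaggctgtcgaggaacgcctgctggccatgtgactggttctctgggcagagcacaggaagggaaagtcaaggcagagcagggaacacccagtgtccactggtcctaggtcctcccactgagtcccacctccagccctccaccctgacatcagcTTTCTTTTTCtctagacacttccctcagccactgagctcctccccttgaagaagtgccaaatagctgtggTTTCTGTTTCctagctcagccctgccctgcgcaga

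The GAS letters were in none of the 8 promoters and in 8.3% of the 32851 promoters of the table. The ISRE letters occurred in Lgals9 alone, starting 55 bases before and at base 16 after the start (3.44% of all promoters). Havcr2 and Cd80 held AP-1 letters, 200 and 42 bases before the start (7.81% of all promoters), and Havcr2 held the PU.1-type letters 8 bases before it (3.2%). Such matches describe the letters in this window only.

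In KLG4 tumor cells compared to KL, Cd274, Havcr2, Ctla4, Pdcd1, Pdcd1lg2, Cd80 and Cd86 rose by 3.32 to 5.80 on the log2 scale, and Tigit rose by 0.62. Lgals9 was the only tested member whose value was lower, without passing the test. Of the 9 members tested, 8 were called, all higher in KLG4, where 40.3% of all genes were called and 20.6% were called higher. Pdcd1lg2, Pdcd1, Ctla4, Cd80 and Cd86 reached 1 RPKM in KLG4 libraries only, so their call partly follows from entering the fit. Of the 4 members above 1 RPKM in every library, 3 rose.

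Cd274 lies on chromosome 19 (29367455 to 29388095, plus strand, GRCm38) and encodes PD-L1. It measured 48.8 and 50.9 RPKM in KLG4 tumor cells against 2.87 and 6.35 RPKM in KL. The groups did not overlap, which also held for 32.5% of all genes in this direction, and the fitted difference was 3.51 ± 0.36 (log2, SE, adjusted p = 0.00148, limma). Its KL libraries differed by more than its KLG4 libraries did. Pdcd1lg2, the PD-L2 gene 22.8 kb further along chromosome 19, was far lower at 1.62 and 1.60 RPKM in KLG4 and 0.033 and 0.12 in KL. The KL values rest on 2 and 6 reads, and the difference was 3.32 ± 0.34 (adjusted p = 0.0014), ranging from 1.28 to 4.57 over the alternatives. In the annotation an antisense gene overlaps each of this pair, and a library without strand cannot part their reads.

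The ligands of CTLA-4 and CD28 moved alike. Cd80 measured 4.33 and 4.39 RPKM in KLG4 tumor cells against 0.13 and 0.29 in KL, a difference of 3.90 ± 0.32 (adjusted p = 7.6e-04). Cd86 measured 6.11 and 6.42 RPKM in KLG4 against 0.09 and 0.36 in KL, a difference of 4.43 ± 0.44 (adjusted p = 0.00133). Both genes were near 0 in the KL libraries, and their differences ranged from 2.15 to 4.53 and from 2.58 to 5.20 over the alternatives. Lgals9, the galectin-9 gene, stood apart from the other ligands with 17.7 and 18.9 RPKM in KLG4 and 23.3 and 24.5 in KL. Its KLG4 libraries lay below both KL libraries, as they did for 42.2% of all genes, and the difference was -0.38 ± 0.12 (adjusted p = 0.0546). Its adjusted p spanned 0.0177 to 0.436 over the alternatives. It passed with quantile scaling (adjusted p = 0.0417) and without KL replicate 1 or 2 (0.0177 and 0.0301). A fit that leaves out 1 library takes its spread from the pair of the other genotype and assumes that the lone library varies likewise, and here that pair is the 2 closely alike KLG4 libraries, with 48.8% and 54.3% of all genes then called.

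Among the receptors, Ctla4 measured 17.5 and 18.5 RPKM in KLG4 tumor cells and 0.23 and 0.21 in KL (a difference of 5.80 ± 0.18, adjusted p = 8.3e-05). Havcr2, the TIM-3 gene, measured 29.5 and 33.2 RPKM in KLG4 and 1.39 and 2.55 in KL (3.98 ± 0.29, adjusted p = 5.8e-04). Pdcd1, the PD-1 gene, measured 4.29 and 3.25 RPKM in KLG4 and 0.085 and 0 in KL. The KL libraries held 6 and 0 Pdcd1 reads, so its fitted difference of 4.82 ± 0.38 (adjusted p = 6.9e-04) depends on the pseudocount and ranged from 2.19 to 7.15 over the alternatives. Lag3 stayed under 1 RPKM in all 4 libraries, with overlapping groups (0.97 and 0.45 RPKM in KLG4, 0.57 and 0.45 in KL), and was tested only without the filter (0.33 ± 0.37, adjusted p = 0.526).

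Tigit behaved unlike the other T cell receptors in level. It measured 19.1 and 23.2 RPKM in KLG4 tumor cells and already 13.8 and 13.5 in KL, from 324 to 488 reads a library, and rose by 0.62 ± 0.15 (adjusted p = 0.0229). In the same KL libraries the T cell receptor complex gene Cd3e stood at 0.027 and 0.016 RPKM, and the T cell receptor gene Trbc2 at 3.47 and 2.87. No other listed gene shares an exon with Tigit, but the tables do not show where in the gene its reads lie, so its KL level is uncertain. The call was lost when either KLG4 library was left out (adjusted p = 0.0896 and 0.271, where all alternatives spanned 0.0172 to 0.271).

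**Figure D1:**
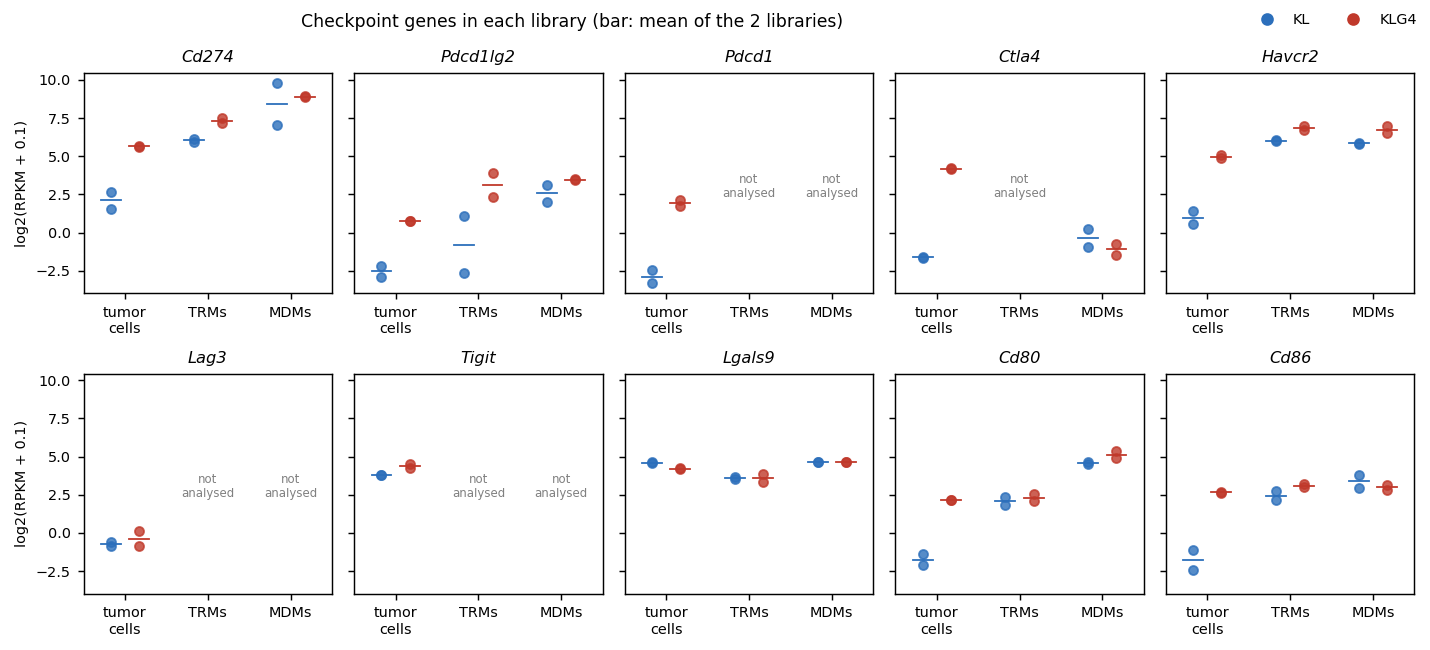
Level of each of the 10 genes in each library, as log2(RPKM + 0.1) on the vertical axis, for KL (blue) and KLG4 (red) in the 3 populations; points are libraries and bars the mean of 2. In tumor cells 8 genes lie higher in both KLG4 libraries and Lgals9 lower, while in MDMs the 2 KL libraries of Cd274 (876 and 133 RPKM) lie on either side of the KLG4 libraries.

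Leukocyte markers rose in the same tumor cell libraries. Ptprc, which encodes CD45, measured 26.7 and 27.4 RPKM in KLG4 and 0.83 and 2.06 in KL (4.25 ± 0.40, adjusted p = 0.00108). All 10 leukocyte markers rose, of which 2 reached 1 RPKM in KLG4 libraries only, as did the 10 tested of 11 T cell markers, of which 8 reached 1 RPKM in KLG4 libraries only. The 11 T cell markers summed to 74.2 and 77.9 RPKM in KLG4 and 5.03 and 5.67 in KL, where 5 of them lay under 0.1 RPKM. All 9 tested neutrophil, 8 tested monocyte-derived macrophage and 10 fibroblast markers rose too, as did 7 of 8 dendritic cell and 6 of 9 alveolar macrophage markers, where 20.6% of all genes were called higher. Of these, 3 neutrophil, 4 monocyte-derived macrophage, 4 fibroblast, 5 dendritic cell and 2 alveolar macrophage markers reached 1 RPKM in KLG4 libraries only. All 10 epithelial markers fell, Epcam from 638 and 420 RPKM in KL to 215 and 211 in KLG4. The part of these cells' RNA in the checkpoint differences was not tested. Foxp3, the regulatory T cell factor, lay at 2.79 to 3.68 RPKM in all 4 libraries, but its exons overlap those of Ccdc22 and its value is uncertain. The other regulatory T cell markers with a row, Il2ra and Ikzf2, lay higher in KLG4. Il2ra measured 2.90 and 2.23 RPKM in KLG4 and 0 and 0.046 in KL (4.45 ± 0.32, adjusted p = 5.5e-04, limma), and reached 1 RPKM in KLG4 libraries only. Ikzf2 measured 0.46 and 0.35 RPKM against 0.12 and 0.19, under the filter.

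Each member was also set against leukocyte markers in the same library, as Ptprc alone or as the sum of the 10 markers. Cd274 measured 182 and 186 RPKM per 100 RPKM of Ptprc in KLG4 and 345 and 308 in KL, lower in KLG4, but per 100 RPKM of the 10 summed leukocyte markers the genotypes overlapped (16.8 and 17.6 in KLG4, 12.1 and 19.8 in KL). Ctla4, Pdcd1, Pdcd1lg2, Cd80 and Cd86 were higher in both KLG4 libraries by either measure. Ctla4 measured 65.5 and 67.5 per 100 RPKM of Ptprc against 28.1 and 10.3 in KL. Cd86 measured 22.9 and 23.5 per 100 RPKM of Ptprc in KLG4 and 10.7 and 17.5 in KL. Per Ptprc the gap was smallest, of these 5, for Pdcd1lg2 (6.06 and 5.86 against 3.98 and 5.84, on few KL reads). It was also small for Cd80 (16.2 and 16.1 against 15.4 and 14.1) and wider per summed markers (1.49 and 1.51 against 0.54 and 0.91). Havcr2 was the member whose direction turned with the divisor. It was lower per Ptprc in KLG4, at 110 and 122 against 166 and 124 in KL, but higher per summed markers, at 10.1 and 11.5 against 5.84 and 7.96. Tigit lay far lower per Ptprc in KLG4, at 71.3 and 84.7 against 1660 and 652 in KL, as did Lgals9 and Lag3, and these 3 were lower per summed markers too. These ratios are a description with 2 libraries a group.

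**Figure D2:**
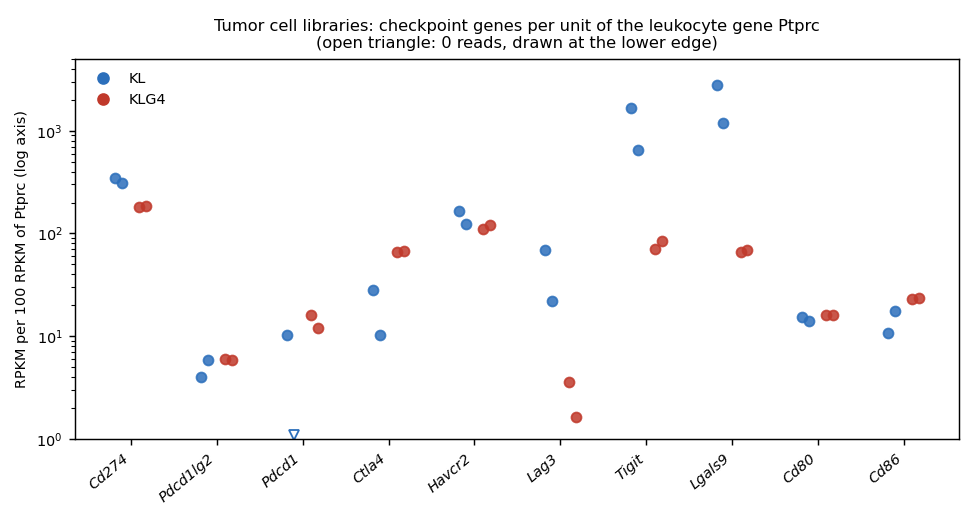
RPKM of each gene per 100 RPKM of Ptprc (vertical log axis) in the tumor cell libraries, KL in blue and KLG4 in red, 1 point a library. On this divisor Cd80 lies at 14.1 to 16.2 in all 4 libraries, Cd274 is higher in KL, Ctla4 higher in KLG4, and Tigit and Lgals9 lie far higher in KL.

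In TRMs, Cd274 was the only member called, and it rose. It measured 182 and 144 RPKM in KLG4 and 61 and 70.5 in KL, a difference of 1.30 ± 0.19 (adjusted p = 0.0446, limma) where 1.8% of all genes were called and 1.36% were called higher. The median of all genes tested was already 0.38 higher in KLG4, so relative to it the change was smaller, and under 3 scalings that lowered this shift (TMM, quantile, and leaving out mitochondrial reads) Cd274 remained higher by 0.91 to 1.16 but did not pass (adjusted p = 0.0591 to 0.0969). With voom on recovered reads, which also lowered the shift, it was 0.92 and passed (adjusted p = 0.00713). Without KL replicate 1 the adjusted p was 0.0631, and over all alternatives it ranged from 0.00292 to 0.0981.

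Havcr2 was next among the TRM genes, with 105 and 124 RPKM in KLG4 and 62.3 and 65.9 in KL (0.83 ± 0.16, adjusted p = 0.0601). It passed at a pseudocount of 1 and without KL replicate 2 (adjusted p = 0.0496 and 0.0347), was 0.44 with TMM and 0.43 with voom, and its adjusted p spanned 0.0347 to 0.192 over the alternatives. Pdcd1lg2 had the largest fitted difference and also the widest spread within a genotype, with 5.04 and 15.1 RPKM in KLG4 and 0.061 and 2.00 in KL (3.93 ± 1.21, adjusted p = 0.112), the lowest value resting on 1 read. It passed without KL replicate 2 (5.78, adjusted p = 0.0123) and without KLG4 replicate 1 (4.71, adjusted p = 0.00931), within a range of 0.00931 to 0.194 over the alternatives. Cd86 measured 8.94 and 7.76 RPKM in KLG4 and 6.45 and 4.42 in KL (0.63 ± 0.27, adjusted p = 0.187). For these 4 genes the KLG4 libraries lay above both KL libraries, as they did for 53.7% of all genes.

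Cd80 and Lgals9 overlapped between the genotypes in TRMs. Cd80 measured 4.08 and 5.70 RPKM in KLG4 and 3.41 and 4.95 in KL (0.23 ± 0.31, adjusted p = 0.652), and Lgals9 10.1 and 14.6 against 12.4 and 11.4 (0.03 ± 0.24, adjusted p = 0.952). Both differences turned negative under TMM and quantile scaling. The leukocyte markers summed to 591 and 607 RPKM in KLG4 and 473 and 534 in KL, and 2 of the 10 alveolar macrophage markers were called, Marco and Chil3, which rose (1.79 and 1.17, adjusted p = 0.0438 and 0.0475). Over that list 3 markers had both KLG4 libraries above KL and 4 had both below, with a median of -0.03. Their part in the Cd274 change was not tested. Per 100 RPKM of Ptprc, Cd274 measured 244 and 194 in KLG4 and 196 and 167 in KL, so the genotypes overlapped, whereas per 100 RPKM of the summed leukocyte markers they did not (30.8 and 23.6 against 12.9 and 13.2).

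In MDMs, none of the 6 members tested was called and none of the 10475 genes tested passed with limma, while 706 genes (6.74%) had an unadjusted p under 0.05, among them Havcr2. Havcr2 measured 89.6 and 128 RPKM in KLG4 and 55.6 and 59.4 in KL (0.90 ± 0.25, unadjusted p = 0.0168, adjusted p = 0.679). Pdcd1lg2, at 10.5 and 11.2 RPKM against 8.74 and 3.87, and Cd80, at 30 and 40.3 RPKM against 25.3 and 22.4, also had both KLG4 libraries above both KL libraries, as did 25.4% of all genes (0.89 ± 0.43 and 0.55 ± 0.24, both adjusted p = 0.679). limma on recovered reads (voom) called 0 genes as well. Lgals9 was nearly constant at 24.3 to 24.9 RPKM (0.02 ± 0.18, adjusted p = 0.982), which leaves room for a difference of either sign within that error.

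The 2 KL libraries of MDMs disagreed on Cd274 more than on any other member with a row, on the ratio scale. Cd274 measured 481 and 473 RPKM in KLG4, and 876 and 133 in KL (0.48 ± 0.91, adjusted p = 0.854). At 876 RPKM it was the 57th most abundant of the listed genes in KL replicate 1. Without KL replicate 1 the difference became 1.84 (adjusted p = 0.0166) and Pdcd1lg2 passed too (1.47, adjusted p = 0.0175), when 2592 genes were called and the spread came from the KLG4 pair alone, and without KL replicate 2 it became -0.88 (adjusted p = 0.195). Over all alternatives its adjusted p was 0.0166 or higher.

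Most genes listed for PD-L1 regulation and interferon response differed in the same direction as Cd274 between these 2 KL libraries. Beside Irf1 and Cxcl10, these held Jak2 (208 and 116 RPKM in KL replicates 1 and 2), Nfkb1 (39.6 and 24.5) and Cxcl9 (21.5 and 13.5). The interferon-gamma receptor genes Ifngr1 and Ifngr2, and Cmtm4 and Myc, differed in the other direction. Irf1, a transcription factor that acts on the Cd274 promoter, measured 209 and 49.4 RPKM in KL replicates 1 and 2, and Cxcl10, an interferon-induced chemokine, 42.5 and 5.31. Ifngr1 measured 33.1 and 48.5 RPKM and Ifngr2 16.7 and 20.4. In KLG4 Irf1 and Cxcl10 lay between the KL libraries, Irf1 at 72.6 and 54.4 RPKM and Cxcl10 at 8.59 and 6.65. KL replicate 2 had fewer reads than KL replicate 1 (10377000 against 18562000). It also held more C1qa (92.7 against 16 RPKM), more Cx3cr1 (42 against 5.07) and less S100a9 (9379 against 21106) than KL replicate 1. Markers of other cell types summed higher in it too: epithelial to 271 against 84.8 RPKM, endothelial to 46.3 against 20.2 and fibroblast to 19.1 against 3.20. The part of these markers in the Cd274 values was not tested.

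Cd86 and Ctla4 completed the MDM genes. Cd86 measured 8.83 and 7.01 RPKM in KLG4 and 7.45 and 14 in KL, with overlapping groups (-0.37 ± 0.37, adjusted p = 0.746), and its sign turned without KL replicate 2 (0.08). Ctla4 was low in all 4 libraries, at 0.49 and 0.26 RPKM in KLG4 and 1.06 and 0.41 in KL, and was tested only without the filter (-0.73 ± 0.56, adjusted p = 0.699).

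**Figure D3:**
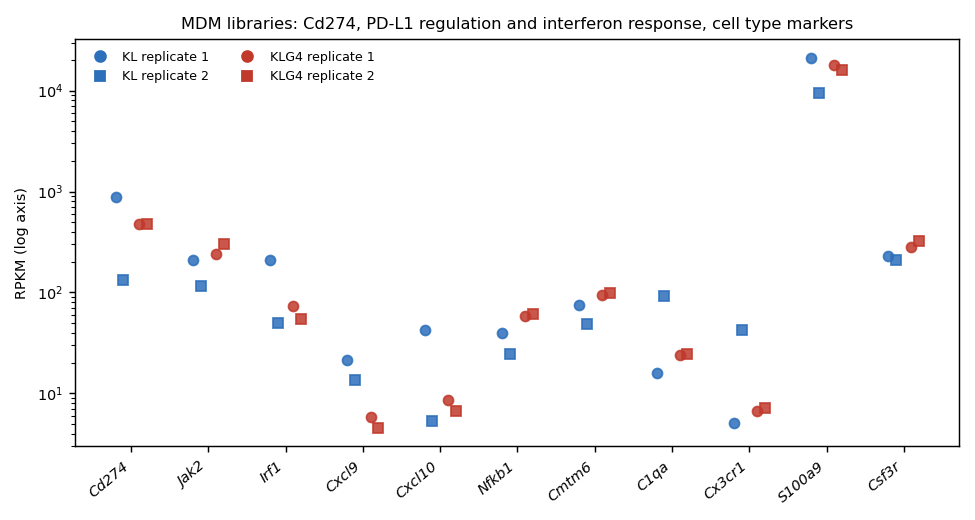
RPKM (vertical log axis) of Cd274, 6 genes of PD-L1 regulation and interferon response and 4 cell type markers in the MDM libraries, KL in blue, KLG4 in red, circles for replicate 1 and squares for replicate 2. KL replicate 1 is highest for Cd274 (876), Irf1 (209) and Cxcl10 (42.5), and KL replicate 2 is highest for C1qa (92.7) and Cx3cr1 (42).

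**Figure D4:**
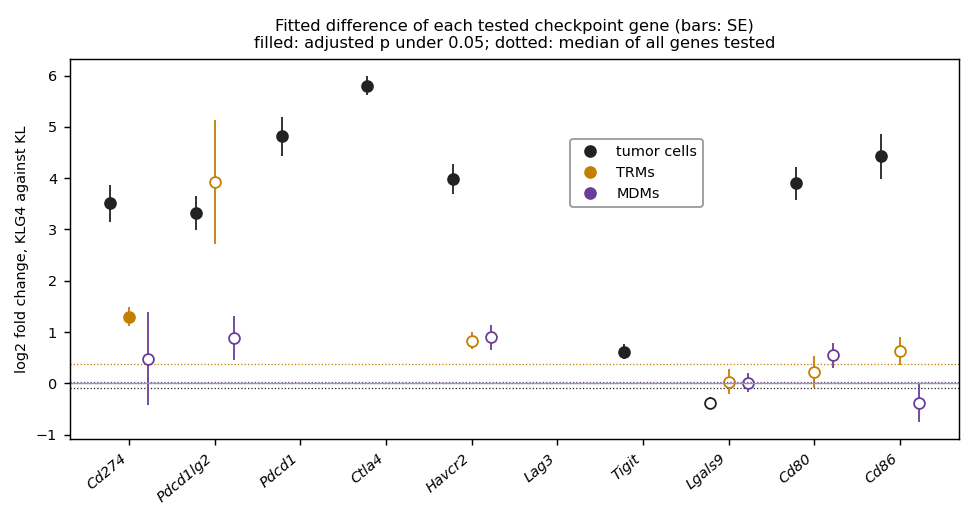
Fitted log2 fold change of KLG4 against KL (vertical axis, bars are SE) for each tested member in tumor cells, TRMs and MDMs; filled points passed an adjusted p of 0.05 and dotted lines are the medians of all genes tested. The filled points are 8 members in tumor cells and Cd274 in TRMs, and Lgals9 lies near 0 in TRMs and MDMs.

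Across populations the tables were made separately, so levels are given as a description with no test. Cd274 had its highest group means in MDMs, of which that of KL rests on replicate 1, followed by KLG4 TRMs (mean 163 RPKM), KL TRMs (65.7), KLG4 tumor cells (49.8) and KL tumor cells (4.61). The range of KL MDMs (133 to 876) overlapped those of KLG4 MDMs and KLG4 TRMs, and the groups below did not overlap their neighbours. Havcr2 was led by KLG4 TRMs and KLG4 MDMs (means 114 and 109 RPKM, overlapping), then KL TRMs (64.1), KL MDMs (57.5) and KLG4 tumor cells (31.4), with no overlap below the first pair. Cd80 was led by KLG4 and KL MDMs (35.1 and 23.8 RPKM), with KLG4 TRMs, KLG4 tumor cells and KL TRMs overlapping at 4.89, 4.36 and 4.18. Pdcd1lg2 ranked KLG4 MDMs, KLG4 TRMs and KL MDMs first (10.9, 10.1 and 6.31 RPKM), each overlapping the next, and Cd86 ranked KL MDMs, KLG4 TRMs and KLG4 MDMs first (10.7, 8.35 and 7.92), overlapping as well. Lgals9 spanned the narrowest range of group means, on the ratio scale, among the 6 genes with a row in every table, from 11.9 in KL TRMs to 24.7 in KLG4 MDMs. Ctla4 in KLG4 tumor cells (18 RPKM) exceeded all 4 MDM libraries.

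Pairs of ligands that share a receptor differed in balance. Cd274 exceeded Pdcd1lg2 in every library, by 9.51-fold in KLG4 TRM replicate 2 at the least and by 34.5- to 100-fold in the MDM libraries. Cd80 exceeded Cd86 by 1.59- to 5.75-fold in the 4 MDM libraries. In TRMs Cd86 was the higher of the pair in 3 of 4 libraries, and in tumor cells Cd86 was higher in 3 of 4 (1.41 and 1.46 times Cd80 in KLG4, 0.70 and 1.24 times in KL).

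The genes whose pattern over the 12 libraries was most like that of each member, by Pearson's r of log2(RPKM + 0.1) among 10798 genes, are named here as a description, since the points share libraries and population. For Cd274 these were Acap2, Csf2rb2 and Elmo1 (r = 0.98 each), for Havcr2 Dock2, Adgre1 and Ikzf1 (0.99 each), for Cd80 Snx20, Cxcr4 and Cd101 (1.00, 0.99 and 0.99), for Cd86 Gm21975, Evi2b and Il16 (0.99, 0.99 and 0.98), and for Pdcd1lg2 Pfkfb4, Tmem120a and Btbd9 (0.97, 0.97 and 0.95). Lgals9 was again apart, with Adssl1 and Gm23419 among the 3 most like it (0.97 and 0.95) and with r of -0.37 to 0.13 to the other 5 members compared.

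The wider set of checkpoint genes was read from lists of other receptors, other ligands, and genes of PD-L1 regulation with the interferon-induced chemokine genes Cxcl9 and Cxcl10. Of 19 other checkpoint receptors tested in tumor cells, 17 rose and 1 fell, where 20.6% of all genes were called higher and 19.6% lower. Of these 19, 11 reached 1 RPKM in KLG4 libraries only and 1, Klrc1, in KL libraries only, so those calls partly follow from entering the fit. Cd27, a costimulatory receptor of lymphocytes, measured 1.92 and 2.05 RPKM in KLG4 and 0.07 and 0 in KL (4.0 ± 0.35, adjusted p = 9.0e-04). Lilrb4a, an inhibitory receptor of myeloid cells, was the most abundant of them at 677 and 703 RPKM in KLG4 and 29.7 and 64.9 in KL (3.97 ± 0.36, adjusted p = 9.9e-04), and Icos, a costimulatory receptor of T cells, measured 2.11 and 1.43 RPKM against 0.016 and 0.019 (3.97 ± 0.31, adjusted p = 6.8e-04). Klrc1, an NK cell receptor gene, fell by 2.08 on the log2 scale (0.54 and 0.13 RPKM against 2.15 and 1.07, adjusted p = 0.0391).

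The other checkpoint ligands divided in tumor cells, with 5 higher, 6 lower and 7 not called of 18 tested (median -0.15), where 20.6% of all genes were called higher and 19.6% lower. Icosl, Cd40 and Cd48, 3 of the 5 higher, reached 1 RPKM in KLG4 libraries only and Fgl1 in KL libraries only, so their calls partly follow from entering the fit. Tnfsf14, Icosl and Cd40 rose by 3.47, 3.30 and 3.26, from 1.64 RPKM or less in KL to 12.4 and 14.8, 6.37 and 6.91, and 2.43 and 2.90 RPKM in KLG4. Cd40 encodes a receptor but was counted in this list. Nectin2, a ligand of TIGIT on epithelial and other cells, fell by 1.25 on the log2 scale (20.4 and 19.1 RPKM in KLG4 against 49.2 and 45 in KL, adjusted p = 0.0012). Fgl1, a ligand of LAG-3, fell by 1.54, from 1.84 and 1.07 RPKM in KL to 0.38 and 0.45 (adjusted p = 0.0152), and Tnfsf9, the ligand of the receptor 4-1BB, fell by 1.07 (adjusted p = 0.0302). Pvr, the other main ligand of TIGIT, measured 7.09 and 8.50 RPKM in KLG4 and 10.6 and 11.5 in KL and was not called (adjusted p = 0.0517); it was named after its values were seen.

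**Figure D5:**
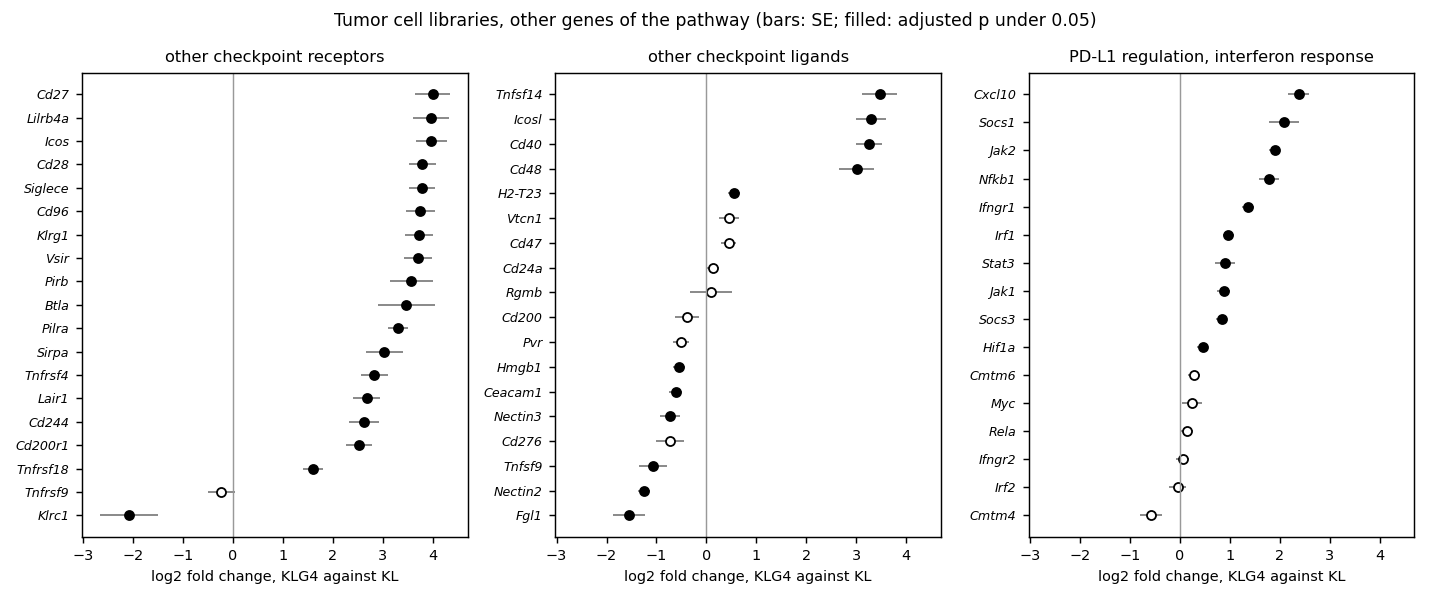
Fitted log2 fold change of KLG4 against KL (horizontal axis, bars are SE) in tumor cells for the tested genes of the 3 lists, with 1 uncalled gene of the PD-L1 regulation list not drawn; filled points passed an adjusted p of 0.05. The receptors lie at the right with Klrc1 alone called lower, and the genes of the ligand list divide into 5 higher and 6 lower. Of 17 genes of PD-L1 regulation and interferon response, 10 were called higher and none lower.

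Of 17 tested genes of PD-L1 regulation and interferon response, 10 rose in KLG4 tumor cells and none fell, beside 20.6% and 19.6% of all genes. Cxcl10 rose by 2.38 (7.93 and 6.69 RPKM against 1.14 and 1.53), Socs1, a brake on JAK signalling that reached 1 RPKM in KLG4 libraries only, by 2.08 (1.35 and 2.01 against 0.36 and 0.27), and the kinase gene Jak2, which lies near Cd274 on chromosome 19, by 1.90 (87.9 and 88.4 against 22.9 and 24, adjusted p = 3.3e-04). Irf1 rose by 0.97. Cmtm6, whose product keeps PD-L1 at the cell surface, was not called (21.1 and 19.7 against 16.1 and 17.3, adjusted p = 0.124). Cmtm4, a relative of Cmtm6, lay lower in both KLG4 libraries (2.39 and 2.13 against 2.97 and 3.94, adjusted p = 0.0835).

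In TRMs, 0 of 12 other receptors and 0 of 14 other ligands were called with limma (5 and 6 of them at an unadjusted p under 0.05, as were 28.3% of all genes), and 2 of 16 genes of PD-L1 regulation and interferon response rose, where 1.36% of all genes were called higher. With TMM scaling the calls among all TRM genes fell from 198 to 28. The 2 genes were Jak2 (32.5 and 46.9 RPKM against 14.5 and 14.7, 1.41 ± 0.23, adjusted p = 0.0485) and the NF-kappaB gene Nfkb1 (18.6 and 16.4 against 7.35 and 7.51, 1.22 ± 0.19, adjusted p = 0.0475), both of which also rose in tumor cells. Myc lay higher in both KLG4 libraries and Cxcl10 lower (adjusted p = 0.265 and 0.235). The leading receptors by size were Btla, Pirb and Cd244 (1.76, 1.01 and 0.73, adjusted p = 0.0969, 0.0592 and 0.147), and the leading ligands were Tnfrsf14, Tnfsf9 and Ceacam1 (2.51, 1.33 and 1.30, adjusted p = 0.0709, 0.19 and 0.0656).

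In MDMs no gene of the 3 lists was called by limma. Tested were 11 other receptors, 15 other ligands and 16 genes of PD-L1 regulation and interferon response. Of these, 0, 1 and 2 had an unadjusted p under 0.05, as did 6.74% of all genes. Cxcl9, an interferon-gamma-induced chemokine, had the largest decrease in the list of PD-L1 regulation and interferon response (5.77 and 4.54 RPKM in KLG4 against 21.5 and 13.5 in KL, -1.71 ± 0.32, unadjusted p = 0.00362, adjusted p = 0.679). Nfkb1, Jak2 and Cmtm6 had the largest increases (0.94, 0.80 and 0.69, all adjusted p = 0.679), with Jak2 at 242 and 300 RPKM in KLG4 and 208 and 116 in KL. Myc and Socs3 lay lower in KLG4 (-0.93 and -0.37). Among the receptors Vsir, Sirpa and Pirb lay higher by 0.51, 0.07 and 0.07 and Lilrb4a and Pilra lower (-0.25 and -0.18), none past the test, with Lilrb4a at 1724 to 2266 RPKM in all 4 libraries. Among the ligands Tnfrsf14, Cd47 and Tnfsf14 lay higher (0.47, 0.29 and 0.28), and Nectin2 and Cd200 lower (-1.69 and -0.85, adjusted p = 0.679 each).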

How the data were processed

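Tumor cells, TRMs and MDMs were sorted from tumor-bearing lungs, and poly(A) RNA was sequenced as paired reads with a kit that does not mark strand. Per the submitters' processing notes and the study's methods, the authors trimmed reads with Trim Galore 0.6.4, aligned them with HISAT2 2.0.5 and counted them per gene with featureCounts 2.0.0 against GRCm38. The deposited values used here are RPKM (reads scaled to gene length and library depth) for 12 libraries, 2 per genotype and population. The authors' own fold change, p-value and FDR columns were not used. The study names a test for counts, but the deposited values are RPKM, so limma 3.58.1 in R 4.3.3 was applied to log2(RPKM + 0.1), each table alone, with a mean-variance trend, two-sided, over genes that reached 1 RPKM in 2 or more of 4 libraries, with Benjamini-Hochberg adjustment over those genes. A fold change on this scale understates the change of low genes. Whole reads came back from RPKM and gene length for over 99.9% of values of genes with a length, which were all genes for tumor cells, 95.7% for TRMs and 93.9% for MDMs (within 0.05 of a whole number, up to 2000 reads), giving library totals of 9141000 to 36617000 reads. Most genes had even read numbers, so both mates of a pair were usually counted and 2 reads can stand for 1 fragment. The promoter motifs were chosen after the promoters had been examined.

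All 10 members are given in every library. Of the other lists, up to 3 genes with the largest increase and 3 with the largest decrease per population were named, among those with non-overlapping genotypes and 1 RPKM or more in the mean of a genotype. For each member averaging 1 RPKM or more over the 12 libraries, the 3 genes most like it are named. The members, lists and tests were chosen with earlier results of these data known. No values of the 5 CD8+ T cell and monocyte samples were used here. The lists of other receptors, other ligands, PD-L1 regulation with interferon response, and cell type markers were written from general knowledge, and a list of co-inhibitory genes that the study shows gave 8 higher and 1 lower of 11 tested in tumor cells (5 of the 11 reached 1 RPKM in KLG4 only, and 20.6% and 19.6% of all genes were called higher and lower), 0 of 8 in TRMs and 0 of 7 in MDMs (6 and 1 at an unadjusted p under 0.05, as were 28.3% and 6.74% of all genes); since the study chose it on these samples, it is not independent evidence of a direction. Alternatives were other pseudocounts, filters and scalings, no trend, voom on recovered reads, a replicate block and leaving out each library. A few genes and alleles are not reported here.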

Additional observations from a re-analysis of the deposited data

Results flagged for a closer look

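No checkpoint member lay above KL in one population and below it in another in every library. Among the 39 members and named genes, compared in 81 pairs of populations, 11 such opposite directions occurred (13.6%, against 15.1% over all genes tested in both populations), and the difference between populations was not tested because the tables were normalized separately. Lilrb4a was above KL in both tumor cells and TRMs but below it in MDMs (a difference of log2 fold changes of 4.22 and 0.84), and Pilra higher in tumor cells and lower in MDMs (3.48). Tnfsf9 and Ceacam1 were lower in KLG4 tumor cells and higher in KLG4 TRMs (2.39 and 1.92). Cd200 lay higher in KLG4 TRMs than in KL TRMs and lower in the KLG4 libraries of tumor cells and MDMs (1.53 and 2.00). Cxcl10 was higher in KLG4 tumor cells and lower in KLG4 TRMs (3.17), and Myc higher in TRMs and lower in MDMs (1.97). Socs3 was higher in KLG4 tumor cells and KLG4 TRMs and lower in KLG4 MDMs (1.21 and 1.02). Of these genes, the tumor cell values of Lilrb4a, Pilra, Tnfsf9, Ceacam1, Cxcl10 and Socs3 passed an adjusted p of 0.05 with limma, and no TRM or MDM value did.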

How the results depend on the processing

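Over the alternatives tried, no single member reversed in tumor cells, where 110 of 115 recomputed values kept their direction and side of the threshold, and the members called numbered 7 to 9 except without either KLG4 library, when the filter removed 5 of the 8 called members, 4 were tested, Tigit lost its call (adjusted p = 0.0896 and 0.271) and 2 were called. The tumor cell median log2 fold change of the tested members, 3.90 (5 of the 9 entered the fit through KLG4 only), became 2.19 at a pseudocount of 1, 4.42 at a pseudocount of 0.01, 3.47 with quantile scaling and 4.53 with voom, and 1.98 to 4.29 leaving out 1 library; the number called then ranged from 2 to 9. Of all genes called in tumor cells, 51.3% were higher in KLG4, against 60.6% with TMM and 38.5% with quantile scaling; in TRMs 75.8% were, against 28.6% and 38.3%.

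In TRMs 1 member was called, against 2 at a pseudocount of 1, 0 with TMM scaling, 0 with quantile scaling, 0 without mitochondrial reads, 0 without a trend, and 0 to 3 leaving out 1 library (KL replicate 1 gave 0, KL replicate 2 gave 3, KLG4 replicate 1 gave 2). The genes called among all TRM genes moved from 198 to 28 with TMM, 60 with quantile scaling, 66 without mitochondrial reads, 12 without a trend, 490 at a pseudocount of 1, 122 at a pseudocount of 0.01, 120 without a filter, 761 with voom, and 297, 458 and 2631 without KLG4 replicate 1, KLG4 replicate 2 and KL replicate 2. The TRM median of 0.73 became 0.34 with TMM, 0.41 with quantile scaling and 0.35 with voom. Lgals9 in TRMs turned to -0.36 with TMM, -0.36 with quantile scaling, -0.12 without mitochondrial reads and -0.43 with voom, and ranged from -0.24 to 0.29 leaving out 1 library. Cd80 in TRMs turned to -0.16 with TMM, -0.19 with quantile scaling and -0.26 with voom, and ranged from -0.036 to 0.49 leaving out 1 library. The cause was not tested.

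In MDMs 0 members were called under every alternative except 2 without KL replicate 1 (range 0 to 2), the median ranged from 0.19 to 0.74, Cd274 from -0.88 to 1.84 and Cd86 from -0.83 to 0.079 leaving out 1 library. Lgals9 in MDMs was -0.0095 without mitochondrial reads and -0.0028 with voom. A replicate block (the replicate number of the titles) gave 2 called members in TRMs, adding Pdcd1lg2 (adjusted p = 0.0126), and 470 genes in all there, and changed no other call of a member; same-numbered libraries deviated together with r of 0.02, -0.06 and 0.05 in the 3 populations, and the labels do not say what a number shares. With 2 libraries a group and low reads for Pdcd1, Pdcd1lg2 and Cd80 in KL tumor cells, the size of those differences is known only roughly.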
